A study of Mus musculus with 8 samples.

Results

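The mitochondrial chromosome of the mouse carries 37 genes, and all of them were present among the 55401 genes of the deposited count table. They were chosen by chromosome alone, with no measured value, and comprise 13 mRNAs, 2 rRNAs and 22 tRNAs. The libraries came from an RNA immunoprecipitation (RIP) experiment, in which an antibody recovers a protein from lysate together with RNA that comes along. Tissue labelled hippocampus from C57BL/6 mice was used throughout. CaMKIIβ RIP (n = 3) was made with an antibody against the kinase subunit CaMKIIβ, IgG RIP (n = 3) with control IgG, and Input (n = 2) was RNA that was not immunoprecipitated. The labels give no treatment, age or sex, and they do not say whether libraries came from separate animals, so the p-values measure only the spread between these libraries, which may be technical.

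Mitochondrial DNA is transcribed from both strands into long precursors, which are cut into separate RNAs mainly at the tRNAs that lie between the other genes. The mRNAs encode subunits of respiratory chain complexes I, III and IV and of ATP synthase, and the rRNAs form the mitochondrial ribosome. These RNAs are made inside the organelle, and they are abundant in brain because neurons depend on oxidative metabolism. All but 1 of the mRNAs are read from the same strand (plus in this build), and mt-Nd6 is the exception.

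Library totals were 17273957 to 28138289 counts. Cerebellar marker genes were abundant in all libraries: the 8 markers of that list summed to 2792 to 3337 CPM (read counts relative to library size, scaled by TMM over the 8 libraries), and the 8 hippocampal and telencephalic markers to 409 to 500 CPM. CaMKIIβ RIP replicates 2 and 3 stood apart from the other RIP libraries in many mitochondrial genes, as described below. Summed blood markers ranged from 180 to 356 CPM in CaMKIIβ RIP, highest in replicate 2, from 160 to 177 in IgG RIP and from 318 to 319 in Input. Astrocyte markers summed to 7480 to 9572 CPM in RIP libraries against 3777 and 3857 in Input, and oligodendrocyte markers to 8923 to 9662 against 5354 and 5355. Whether cell composition had a part in the mitochondrial values was not tested, and in bulk RNA fewer cells of a type and less RNA per cell cannot be told apart.

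Mitochondrial genes took a smaller share of the counts in every RIP library than in Input. They held 0.648%, 0.36% and 0.656% of counts in CaMKIIβ RIP replicates 1 to 3, 0.756%, 0.858% and 0.761% in IgG RIP, and 1.92% and 2.08% in Input. Nearly all of this was mRNA in the RIP libraries, whereas rRNA made up a sizeable part in Input. The mRNAs took 0.64%, 0.348% and 0.619% of counts in CaMKIIβ RIP, 0.747%, 0.847% and 0.73% in IgG RIP, and 1.58% and 1.43% in Input. The 3 groups did not overlap in this share. IgG RIP was 1.95-fold and CaMKIIβ RIP 2.91-fold below Input, and CaMKIIβ RIP was 1.5-fold below IgG RIP, a log2 difference of -0.58 that came to -0.30 without CaMKIIβ RIP replicate 2. Each difference had p = 0.1 by a two-sided exact permutation test of log2 shares, the smallest p that these group sizes allow. The rRNAs took 0.00705%, 0.0111% and 0.0341% of counts in CaMKIIβ RIP, 0.00766%, 0.00946% and 0.0298% in IgG RIP, and 0.331% and 0.639% in Input. CaMKIIβ RIP lay 33.2-fold and IgG RIP 35.6-fold below Input (exact permutation p = 0.1 each), while the antibodies overlapped (p = 0.8). The tRNAs took 0.000798%, 0.000683% and 0.00282% of counts in CaMKIIβ RIP, 0.00157%, 0.00122% and 0.0012% in IgG RIP, and 0.00874% and 0.00816% in Input. That was 7.32-fold (exact permutation p = 0.2) and 6.39-fold (p = 0.1) below Input, again with overlap between the antibodies (p = 1). Counting error was small beside these differences: the 95% Wilson interval of CaMKIIβ RIP replicate 2 was 0.346% to 0.351% for mRNAs and 0.00057% to 0.000818% for tRNAs. Intervals cover counting error only, since reads copied by PCR are not independent molecules.

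**Figure D1:**
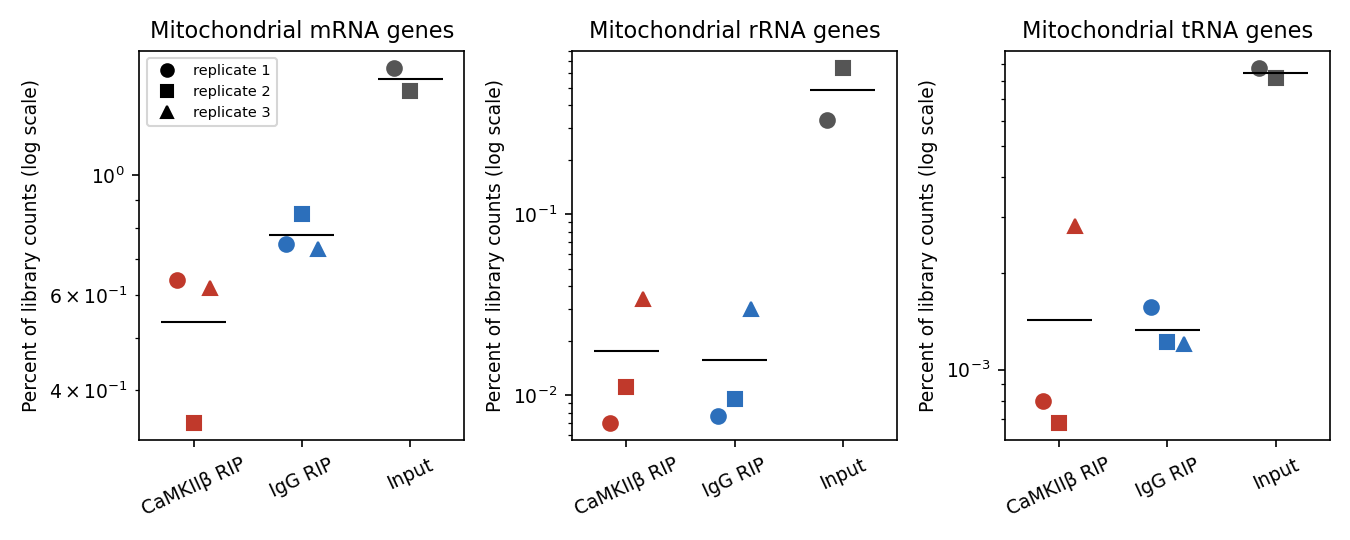
Percent of library counts (log axis) from mitochondrial mRNA, rRNA and tRNA genes, with 1 point per library and a line at the group mean. All Input libraries lie above all RIP libraries in each class, and only the mRNA share (0.348% to 0.64% against 0.73% to 0.847%) separates CaMKIIβ RIP from IgG RIP. Without mt-Cox1 (not drawn) the mRNA shares of the antibodies overlapped.

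Levels differed widely along the chromosome, and a block of genes with low counts bears on which members can be read at all. In Input, mt-Cox1, the catalytic subunit of cytochrome c oxidase (complex IV), reached 5957 ± 528 CPM per kilobase (SD, n = 2). The large ribosomal RNA mt-Rnr2 followed at 2805 ± 1256 CPM per kilobase, and then mt-Cytb, the complex III subunit cytochrome b, at 1072 ± 11.6. The complex I subunits mt-Nd6 (877 ± 84.0), mt-Nd1 (652 ± 90.2), mt-Nd5 (605 ± 38.9) and mt-Nd2 (537 ± 68.6) lay close together, as did mt-Nd4 (453 ± 32.3, all CPM per kilobase). Among mt-Nd1, mt-Nd5 and mt-Nd2 neighbouring means differed by less than the SD of one of them. The other 6 mRNAs, mt-Cox2, mt-Atp8, mt-Atp6, mt-Cox3, mt-Nd3 and mt-Nd4l, were at 0.695 to 20.0 CPM per kilobase. These 6 lie next to each other, and together they held 0.124% of mitochondrial mRNA counts over all libraries.

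The annotation holds a mirror image of that stretch in the nucleus. On GRCm38.p6 chromosome 1, from 24611535 to 24616197 on the minus strand, 7 gene models repeat the order and spacing of mitochondrial genes from position 6381 to 11043, and the offset between start positions of 5 matched pairs varied by 1 base. The models matched mt-Nd4 in part (876 of 1378 bases), mt-Nd4l, mt-Nd3, mt-Cox3, mt-Atp6, mt-Cox2 and mt-Cox1 in part (492 of 1545 bases). RefSeq lists mt-Atp6 as a synonym of one of them, the pseudogene Gm10925. In Input, the nuclear model and its mitochondrial partner were at 4.83 and 4.92 CPM per kilobase for mt-Cox2, 3.47 and 4.56 for mt-Atp6, 8.33 and 10.6 for mt-Cox3, 4.63 and 6.84 for mt-Nd4l, and 2.13 and 20.0 for mt-Nd3. The partial models of mt-Nd4 and mt-Cox1 were at 1.99 and 6.18 CPM per kilobase, far below their partners. Sequence identity was not computed here, and how reads with several positions were counted is not given in the sources. The 6 mRNAs within the block are therefore uncertain in level, and the part of shared reads in their low counts was not tested. The levels per kilobase of mt-Nd4 and mt-Cox1, which use the full length, carry the same uncertainty over their mirrored bases. No genome or transcript sequence of the mitochondrial chromosome was used here, so no member sequence is shown.

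**Figure D2:**
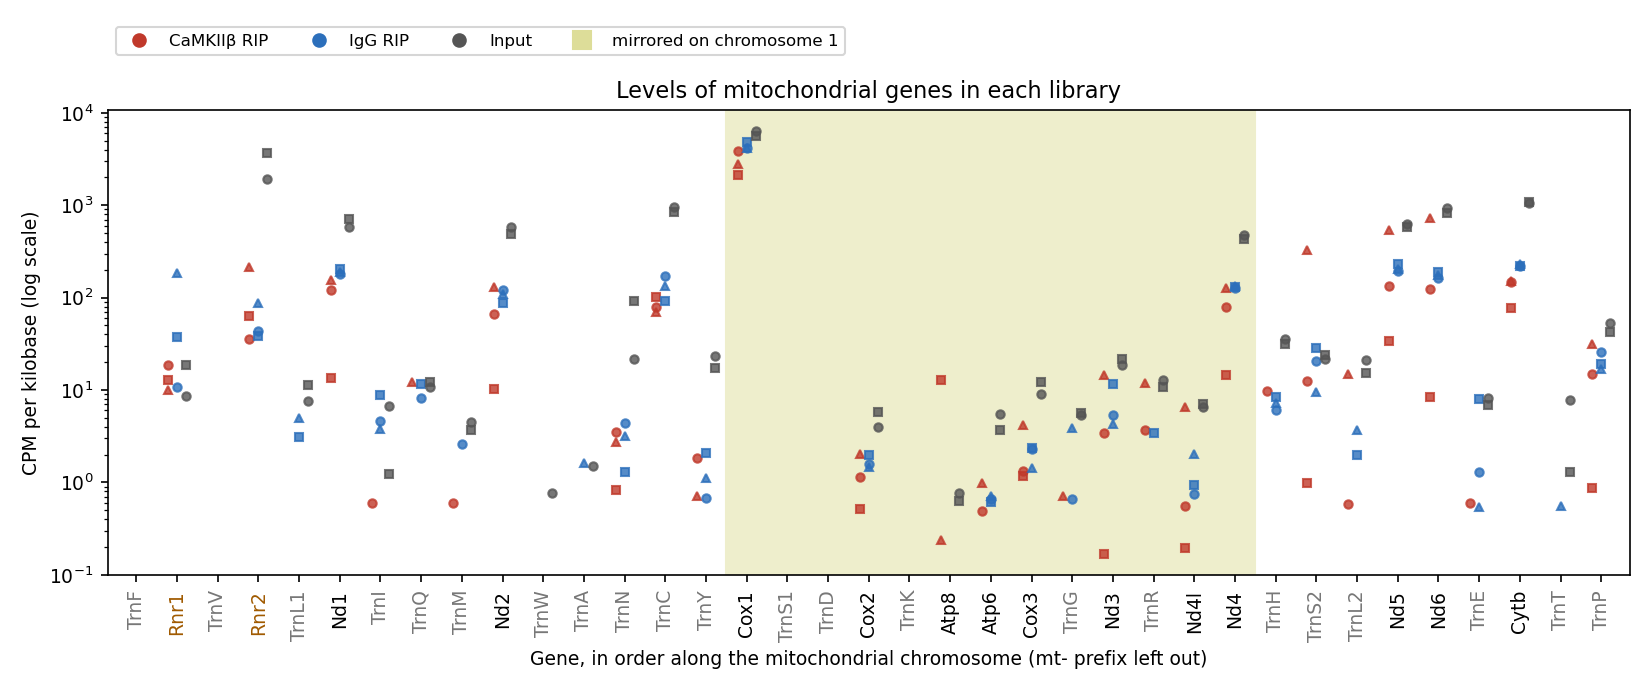
Level of each mitochondrial gene in CPM per kilobase (log axis), in order along the chromosome, with 1 point per library (circle, square and triangle for replicates 1, 2 and 3) and genes at 0 counts left blank. The shaded genes, from mt-Cox1 to mt-Nd4, lie wholly or in part within the stretch mirrored on chromosome 1; the 6 mRNAs wholly inside it were at 0.695 to 20.0 CPM per kilobase in Input, against 453 to 5957 for the other 7.

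IgG RIP was set against Input to see how mitochondrial RNA fared with an antibody not directed at the kinase. Every mRNA that could be tested fell. Of the 13 mRNAs, 12 had enough counts, and 12 of these 12 fell and 0 rose (edgeR quasi-likelihood test, Benjamini-Hochberg adjusted over 22342 genes). For mt-Atp6 and mt-Nd4l the counts were enough only through Input. The filter itself thus favoured a fall for them, and their falls add no support. Over all genes tested, 18.7% fell and 20.1% rose, 38.7% in either direction. The median log2 fold change was -1.98 for the 12 mRNAs and -0.02 for all genes, and all 12 lay below Input without overlap, as did 30.8% of all genes. In 1 fit of all 8 libraries, which pools the spread of CaMKIIβ RIP with the others, only 2 of the 12 mRNAs passed, mt-Cytb and mt-Cox3, and 5 members in all, with 15.9% of all genes past the threshold in either direction. Gene by gene, mt-Cytb (GRCm38.p6, positions 14145 to 15288 of the mitochondrial chromosome, plus strand) was at 249, 252 and 264 CPM in IgG RIP and at 1217 and 1236 in Input, a log2 fold change of -2.21 ± 0.06 (SE, adjusted p = 5.85e-13). The values within each group lay within a narrow band, far from those of the other group.

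Among complex I subunits outside the mirrored block or partly in it, falls ranged from -1.48 for mt-Nd5 to -2.29 for mt-Nd2 on the log2 scale. mt-Nd1 was at 174, 193 and 182 CPM against 563 and 685 in Input, a log2 fold change of -1.72 ± 0.08. mt-Nd4 stood at 177, 177 and 183 CPM in the IgG RIP libraries and at 656 and 593 in Input (-1.75 ± 0.06). The groups were apart for both. mt-Nd2 was at 125, 91.6 and 112 CPM against 608 and 507 (-2.29 ± 0.10), and mt-Nd5 at 352, 426 and 368 CPM against 1154 and 1054 (-1.48 ± 0.07). For the light-strand mRNA mt-Nd6 (positions 13552 to 14070, minus strand) the values were 84.3, 99.2 and 92.0 CPM against 486 and 424, a log2 fold change of -2.25 ± 0.08. mt-Nd6 thus fell further than its neighbour mt-Nd5, whose end it overlaps on the other strand. Whether the counting used strand is not given, so reads from transcripts of either strand over mt-Nd6 cannot be told apart.

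mt-Cox1 (positions 5328 to 6872, plus strand) was the mRNA with the smallest fall. It was at 6481, 7408 and 6473 CPM in IgG RIP and at 9781 and 8628 in Input, a log2 fold change of -0.38 ± 0.07 (adjusted p = 2.14e-04). The groups did not overlap, but they lay much closer than for the other mRNAs. Counts of mt-Cox1 relative to all other mitochondrial mRNAs together, a ratio that no scaling can move, were 5.56, 5.94 and 5.37 in IgG RIP and 2.08 and 1.91 in Input, 2.82-fold higher in IgG RIP (exact permutation p = 0.1, the smallest possible; ratio chosen after the values were seen). Without mt-Cox1, the other mRNAs took 0.117% ± 0.00449 of counts in IgG RIP (SD, n = 3) and 0.503% ± 0.0136 in Input (n = 2), a 4.31-fold difference. mt-Cox1 made up 84.3% to 85.6% of mitochondrial mRNA counts in IgG RIP, so the share of the whole class mostly follows this gene.

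Within the uncertain block, mt-Cox3, the third large subunit of complex IV, was at 1.8, 1.85 and 1.12 CPM against 7.18 and 9.48 (-2.34 ± 0.27). mt-Atp6, the ATP synthase subunit of the proton channel, was at 0.45, 0.417 and 0.486 CPM against 3.72 and 2.49 (-2.71 ± 0.42). All 5 tested mRNAs of the block fell, although mt-Atp6 and mt-Nd4l had enough counts to be tested only through Input. The complex IV subunit mt-Cox2 was at 1.08, 1.34 and 1.01 CPM against 2.74 and 3.99 (-1.51 ± 0.35). Of the complex I subunits, mt-Nd3 was at 1.89, 4.03 and 1.5 CPM against 6.45 and 7.47 (-1.45 ± 0.33), and mt-Nd4l, which overlaps mt-Nd4, at 0.225, 0.278 and 0.598 CPM against 1.96 and 2.1 (-2.37 ± 0.53). Their low counts left standard errors several times those of the genes outside the block. mt-Atp8, an accessory subunit of ATP synthase that overlaps mt-Atp6, had 0 counts in each IgG RIP library and 3 in each Input library and was not tested. A count of 0 in those libraries allows a level of up to 0.107 to 0.136 CPM, taking 3 counts as the limit.

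The rRNAs diverged. mt-Rnr2, of the large ribosomal subunit (positions 1094 to 2675), was at 68.1, 61.2 and 137 CPM in IgG RIP and at 3033 and 5842 in Input, a log2 fold change of -5.58 ± 0.63 (adjusted p = 0.00864). Its Input libraries differed from each other by nearly as much as their lower value, yet both lay far above every RIP library. mt-Rnr1, of the small subunit (positions 70 to 1024), was at 10.3, 35.5 and 176 CPM against 8.16 and 17.9, so the groups overlapped and the gene did not pass (adjusted p = 0.347). IgG RIP replicate 3 held most of the mt-Rnr1 counts of its group. mt-Rnr2 made up 99.7% of rRNA counts in both Input libraries but 86.8%, 63.3% and 43.7% in IgG RIP replicates 1 to 3. The rRNA to mRNA ratio of counts was 0.0103, 0.0112 and 0.0408 in IgG RIP and 0.21 and 0.446 in Input (exact permutation p = 0.1).

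Counts in tRNA genes were sparse. Of the 22, 5 had no count in any library (mt-TrnF, mt-TrnV, mt-TrnS1, mt-TrnD and mt-TrnK), 3 of them inside the block mirrored on chromosome 1. Reads over a tRNA gene of 59 to 75 bases can come from the mature tRNA or from an uncut precursor, and counts do not tell these apart. mt-TrnC, the cysteine tRNA on the light strand (positions 5192 to 5257), held 67.3% of all tRNA counts. It was at 11.2, 6.11 and 8.86 CPM in IgG RIP and at 63.8 and 55.8 in Input, a log2 fold change of -2.72 ± 0.16 (adjusted p = 2.27e-09). Its groups were well apart, and the level per length in Input, 906 ± 84.9 CPM per kilobase, was similar to that of mt-Nd6.

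In IgG RIP against Input, 12 tRNAs could be tested, 7 fell and 0 rose. Besides mt-TrnC these were the tRNAs for asparagine, tyrosine, arginine, histidine, leucine (mt-TrnL2) and proline. Of these, mt-TrnN, mt-TrnY, mt-TrnR and mt-TrnL2 had enough counts to be tested only through Input. The filter itself thus favoured a fall for them, and their falls add no support. mt-TrnN was at 0.315, 0.0926 and 0.224 CPM against 1.55 and 6.57 (-4.18 ± 0.60), and mt-TrnY at 0.045, 0.139 and 0.0748 CPM against 1.55 and 1.16 (-3.85 ± 0.79). mt-TrnH stood at 0.405, 0.556 and 0.486 CPM against 2.37 and 2.1 (-2.15 ± 0.45). These RIP levels were near the level of a few counts, and the Input libraries of mt-TrnN differed widely. mt-TrnP was at 1.71, 1.3 and 1.12 CPM against 3.56 and 2.88 (-1.17 ± 0.34). mt-TrnL2 was at 0, 0.139 and 0.262 CPM against 1.5 and 1.07 (-3.11 ± 0.85), and mt-TrnR at 0, 0.232 and 0 CPM against 0.878 and 0.73 (-3.31 ± 1.12). The remaining 9 tRNAs with a count had 1 to 84 counts over the 8 libraries together. mt-TrnS2, a serine tRNA, was at 1.21, 1.67 and 0.561 CPM against 1.29 and 1.42, with overlap, and did not pass (adjusted p = 0.797). Light-strand tRNAs, 8 of the 22, held 72.5% to 86.6% of tRNA counts in IgG RIP and 89.6% and 90.6% in Input, mostly through mt-TrnC. The tRNA to mRNA ratio of counts was 0.00211, 0.00144 and 0.00165 in IgG RIP against 0.00553 and 0.00568 in Input (exact permutation p = 0.1).

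CaMKIIβ RIP against Input asks the same of the kinase antibody. This comparison uses the same Input libraries as the one before, so the 2 are not independent. The levels in CaMKIIβ RIP were again below Input for most members, but its 3 libraries varied so much among themselves that few passed. Of 12 mRNAs tested, 2 fell and 0 rose, where 3.4% of all 22095 genes fell and 5.06% rose, 8.45% in either direction. The median log2 fold change was -2.11 for the mRNAs and -0.12 for all genes. The CaMKIIβ RIP libraries lay wholly below both Input libraries for 12 of 12 mRNAs tested, as they did for 28.5% of all genes. Again mt-Atp6 and mt-Nd4l had enough counts only through Input, which favoured a fall.

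The 2 that passed were mt-Cytb, at 171, 87.8 and 174 CPM against 1217 and 1236 (-3.08 ± 0.27, adjusted p = 0.00399), and mt-Cox1, at 5919, 3291 and 4369 CPM against 9781 and 8628 (-1.02 ± 0.22, adjusted p = 0.0322). Replicate 2 was the lowest of its group for both. In complex I, mt-Nd1 was at 116, 12.9 and 149 CPM and did not pass (-2.75 ± 0.77, adjusted p = 0.0718). mt-Nd2 was at 68.9, 10.7 and 136 CPM (-2.95 ± 0.78, adjusted p = 0.0614), and mt-Nd4 at 110, 19.8 and 174 CPM (-2.62 ± 0.68, adjusted p = 0.0597). For these 3 genes replicate 2 lay far below both of the others. mt-Nd5 was at 246, 61.7 and 978 CPM and mt-Nd6 at 63.7, 4.41 and 382, so that replicate 3 came close to Input (1154 and 1054 CPM for mt-Nd5, 486 and 424 for mt-Nd6). Neither passed (-1.36 ± 0.94 and -1.60 ± 1.31). Within the mirrored block, none passed: mt-Cox2 was at 0.785, 0.348 and 1.4 CPM, mt-Cox3 at 1.03, 0.929 and 3.27, mt-Atp6 at 0.331, 0 and 0.674, mt-Nd3 at 1.2, 0.058 and 5.1, and mt-Nd4l at 0.165, 0.058 and 1.92. Replicate 3 was the highest of its group for all 5.

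Of the rRNAs, mt-Rnr2 fell, from 3033 and 5842 CPM in Input to 55.9, 99.4 and 342 (-4.74 ± 0.73, adjusted p = 0.0132), and mt-Rnr1, at 17.8, 12.1 and 9.48 CPM, overlapped Input (0.01 ± 0.41). Among 11 tRNAs tested, 2 fell and 0 rose. mt-TrnC was at 5.17, 6.67 and 4.62 CPM (-3.45 ± 0.22, adjusted p = 0.00275) and mt-TrnN at 0.248, 0.058 and 0.192 (-4.53 ± 1.04, adjusted p = 0.0413). Here too mt-TrnN had enough counts to be tested only through Input, which favoured a fall. The CaMKIIβ RIP libraries lay close together for mt-TrnC. The other named tRNAs varied more: mt-TrnP was at 0.992, 0.058 and 2.12 CPM, mt-TrnH at 0.661, 0 and 0, mt-TrnY at 0.124, 0 and 0.0481, and mt-TrnR at 0.248, 0 and 0.818. mt-TrnL1, a leucine tRNA, had 0 counts in every CaMKIIβ RIP library and 11 and 20 in Input, and did not pass (adjusted p = 0.147).

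The number of members past the threshold depended on single libraries. With all libraries, 5 of 25 passed. Without CaMKIIβ RIP replicate 2, 10 of 25 fell, 6 of them mRNAs, where 7.39% of all genes fell. mt-Nd1 (-2.17, adjusted p = 0.00223), mt-Nd2 (-2.38, adjusted p = 0.00551) and mt-Nd4 (-2.07, adjusted p = 0.00345) were then among them. So were mt-Atp6, mt-TrnN and mt-TrnY, which had enough counts to be tested only through Input, so their falls add no support. Without CaMKIIβ RIP replicate 1, 0 members passed, as did 0 of all genes, with 10 members at an unadjusted p under 0.05. Without Input replicate 1 or 2, a single Input library was assumed to vary like the RIP group, so only log2 fold changes are given. They were -0.94 and -1.12 for mt-Cox1 and -5.15 and -4.21 for mt-Rnr2. DESeq2 called 7 members lower and 0 higher with all libraries, where it called 15.6% of all genes in either direction.

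**Figure D3:**
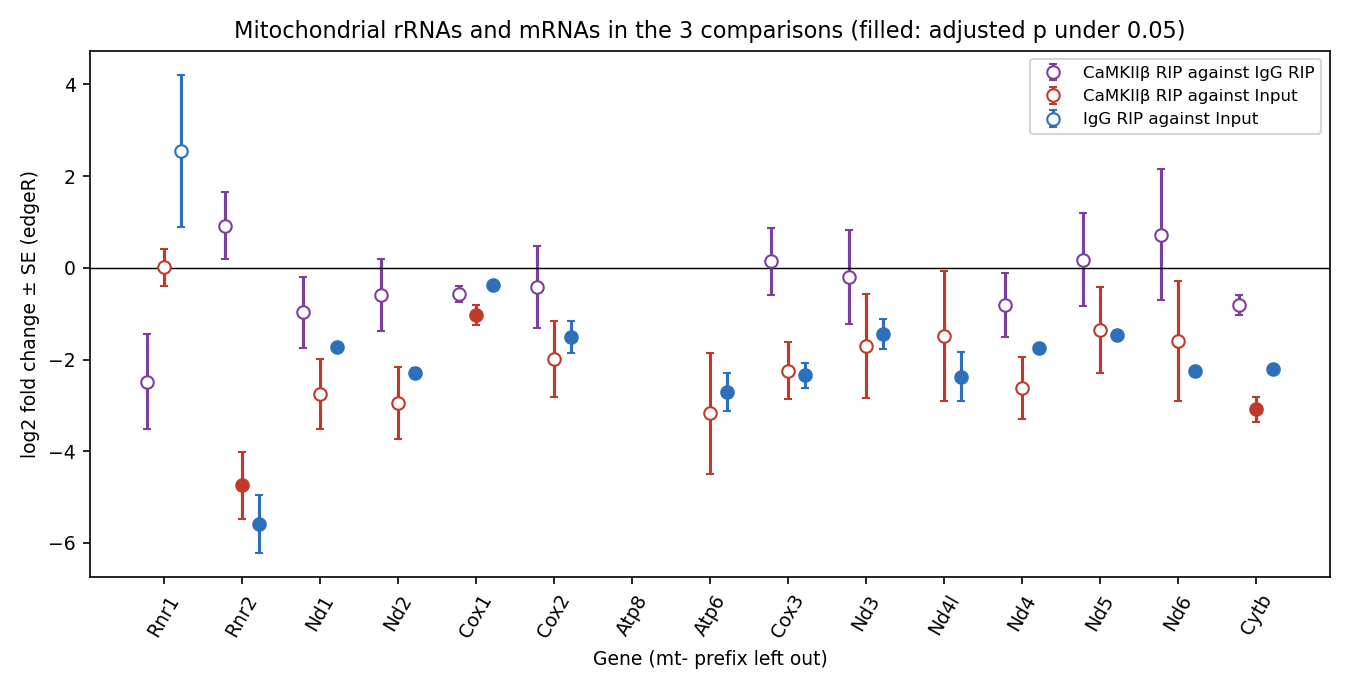
Log2 fold changes (edgeR, points) with SE (bars) for the rRNAs and mRNAs in the 3 comparisons, filled where the adjusted p was under 0.05; genes with too few counts have no point. IgG RIP against Input has short bars and a fall of every tested mRNA, smallest for mt-Cox1 (-0.38), whereas most bars of CaMKIIβ RIP against Input are long and most of its points are open.

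CaMKIIβ RIP against IgG RIP asks whether the kinase antibody recovered mitochondrial RNA beyond the control antibody. No member passed in either direction: 0 of 10 mRNAs, 0 of 2 rRNAs and 0 of 5 tRNAs tested, as 0% of all 20566 genes passed. Among these 17 members 2 had an unadjusted p under 0.05, both lower, as did 1.3% of all genes. DESeq2 also called 0, with 3 unadjusted values under 0.05. The 2 by edgeR were mt-Cytb (-0.81 ± 0.22, 95% interval -1.29 to -0.33) and mt-Cox1 (-0.57 ± 0.17, interval -0.96 to -0.19), each with an adjusted p of 0.982 by edgeR. For both genes the CaMKIIβ RIP libraries lay wholly below the IgG RIP libraries, as they did for mt-Nd1 and mt-Nd4, 4 of 17 members in all, against 6.93% of all genes. No member lay wholly above. Several other intervals were wide: -2.89 to 0.95 for mt-Nd1, -2.49 to 2.84 for mt-Nd5 and -3.10 to 4.54 for mt-Nd6. An excess of 2-fold in CaMKIIβ RIP, a log2 fold change of 1, was above the interval for mt-Cytb, mt-Cox1, mt-Nd1, mt-Nd4 (upper limit 0.91), mt-TrnC (0.04) and mt-Rnr1 (0.07), and within it for the other 11 members tested. The intervals are approximate, and those of mt-Nd1 and mt-Nd4 end close to 1. For mt-Rnr1 the log2 fold change of -2.48 leaned on IgG RIP replicate 3 and came to -0.80 without it.

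The median log2 fold change was -0.57 for the 17 members and -0.02 for all genes, and 12 of the 17 were negative. That figure covers 3 different profiles. In replicate 1, mRNAs outside the mirrored block were 0.628 to 0.694 times the IgG RIP mean (mt-Nd1, mt-Nd2, mt-Nd5, mt-Nd6 and mt-Cytb). mt-Cox1 was at 0.872 times and mt-Rnr1 lower at 0.24 times. The IgG RIP mean of mt-Rnr1 rested mostly on 1 library (10.3, 35.5 and 176 CPM), and replicate 1, at 17.8 CPM, lay within that range. In replicate 2 the same mRNAs were at 0.0704 times for mt-Nd1, 0.0979 for mt-Nd2, 0.161 for mt-Nd5, 0.048 for mt-Nd6 and 0.345 for mt-Cytb. mt-Cox1 was at 0.485 times and mt-TrnC at 0.765 times the IgG RIP mean in that library, so the loss there was uneven between genes. mt-Cox1 made up 94.2% of its mitochondrial mRNA counts, against 88.4% in replicate 1 and 68.5% in replicate 3. Only 4 of the 22 tRNAs had a count in replicate 2, and mt-TrnC took 115 of its 118 tRNA counts.

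Replicate 3 lay above the IgG RIP mean for some genes and below it for others. Relative to the IgG RIP mean, mt-Nd1 was at 0.813 times, mt-Nd2 at 1.24 and mt-Nd4 at 0.97, but mt-Nd5 was at 2.56 and mt-Nd6 at 4.16 times. mt-Cytb, the next mRNA along, was at 0.685 times again. Of the tRNAs between mt-Nd4 and mt-Nd5, mt-TrnS2 was at 19.2 CPM in replicate 3 and at 0.058 to 1.67 in the other 7 libraries, 16.8 times the IgG RIP mean. mt-TrnL2 was at 1.06 CPM, 7.93 times that mean, while mt-TrnH, the third of this cluster, had 0 counts. mt-Rnr2 was at 342 CPM, 3.85 times, while mt-Rnr1 was at 0.128 times. That mt-Rnr1 level, 9.48 CPM, was close to the 10.3 CPM of IgG RIP replicate 1. Within the mirrored block, at low counts, mt-Cox3 and mt-Nd3 were each at 2.06 times, mt-Nd4l at 5.24 times and mt-TrnR at 10.6 times the IgG RIP mean. The mt-Nd5 to mt-Nd1 ratio of counts was 2.12, 4.79 and 6.58 in CaMKIIβ RIP replicates 1 to 3, 2.03, 2.21 and 2.02 in IgG RIP and 2.05 and 1.54 in Input (CaMKIIβ RIP against IgG RIP, exact permutation p = 0.2; ratio chosen after the values were seen). Replicate 1 matched the IgG RIP libraries in this ratio and the other 2 did not.

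The same libraries moved the light-strand share. mt-Nd6 was 0.951%, 0.126% and 5.99% of mitochondrial mRNA counts in CaMKIIβ RIP, 1.1%, 1.15% and 1.2% in IgG RIP, and 3.35% and 3.22% in Input. IgG RIP lay 2.86-fold below Input (exact permutation p = 0.1). CaMKIIβ RIP spanned values below and above both of the other groups, and the exact permutation p was 0.7 against IgG RIP and 0.6 against Input. mt-Atp8 likewise had 45 counts in CaMKIIβ RIP replicate 2 (2.61 CPM) and 0 to 3 in each of the other libraries. The log2 difference in mt-Nd6 share from IgG RIP was -1.73 without replicate 3 and 1.06 without replicate 2.

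**Figure D4:**
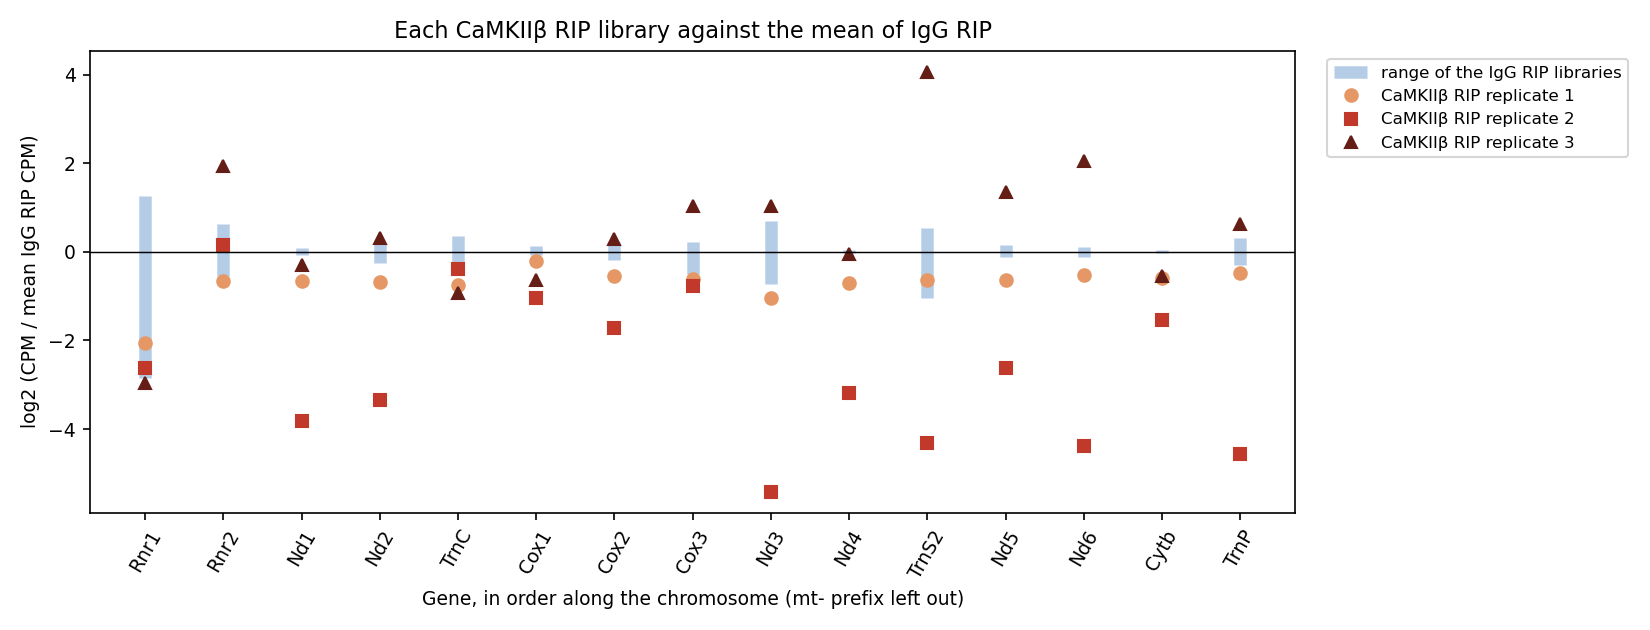
Log2 ratio of each CaMKIIβ RIP library to the mean CPM of IgG RIP, gene by gene along the chromosome, with bars for the range of the 3 IgG RIP libraries; rRNAs and mRNAs with at least 60 IgG RIP counts in all and 3 tRNAs are drawn. Replicate 1 lies below 0 for every gene drawn, from -0.20 at mt-Cox1 to -2.06 at mt-Rnr1. Replicate 2 falls to -5.41 at mt-Nd3, a value that rests on 1 count in a gene of the mirrored block. Replicate 3 runs from -2.97 at mt-Rnr1 to 4.07 at mt-TrnS2. At mt-Rnr1 the IgG RIP libraries themselves run from -2.84 to 1.25, so the value of replicate 1 lies within their range.

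Nuclear genes that make, process and stabilise mitochondrial RNA were described as a list of 37, which covered the mitochondrial RNA polymerase, its factors, RNA processing enzymes, stability factors and replication proteins. In IgG RIP against Input, 15 fell, 8 rose and 14 did not pass (median -0.25, against -0.02 over all genes), where 18.7% of all genes fell and 20.1% rose. The number that rose was thus near the background share. The largest rises were those of the RNA polymerase Polrmt (49.9 ± 1.7 against 31.8 ± 0.17 CPM, log2 fold change 0.71 ± 0.09), the RNA-binding protein Ptcd1 (0.55 ± 0.13) and the FASTK family member Tbrg4 (0.50 ± 0.10). Among the falls were the mitochondrial poly(A) polymerase Mtpap (7.74 ± 1.17 against 24.0 ± 4.56 CPM, -1.58 ± 0.16) and Trmt10c, a subunit of the enzyme that cuts precursors at the 5′ end of tRNAs (-1.28 ± 0.23). Slirp, an RNA stability factor, also passed, but on 2 counts in IgG RIP and 32 in Input. In CaMKIIβ RIP against Input 3 fell, Mtpap (-1.53 ± 0.24), the small-subunit translation factor Ptcd3 (-0.89 ± 0.15) and the RNA-granule protein Grsf1 (-0.71 ± 0.14), and Polrmt rose (0.77 ± 0.16), where 3.4% of all genes fell and 5.06% rose. With library size alone as the scaling, which moved the median of all genes from -0.02 to -0.25 and from -0.12 to -0.29, the counts became 19 lower and 4 higher, and 5 lower and 0 higher. Ptcd1 no longer passed against Input in IgG RIP (0.32, adjusted p = 0.0556), nor Polrmt in CaMKIIβ RIP (0.60, adjusted p = 0.0619). Against IgG RIP, 0 of 36 passed, with 2 at an unadjusted p under 0.05, and the median was -0.02.

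The nuclear genes whose log2 CPM followed summed mitochondrial mRNA most closely over the 8 libraries were Rfx7 (r = 0.999), Nsmaf (r = 0.995) and Clock (r = 0.989), of 9559 named genes at 10 CPM or more. These are descriptions over 3 groups that differ in mitochondrial share. Rfx7 averaged 57.6 CPM in CaMKIIβ RIP, 76.1 in IgG RIP and 108 in Input.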

How the data were processed

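Raw counts per gene for 8 libraries were deposited in 1 table. Per the submitters' processing notes, the tools named are STAR 2.7.3a, featureCounts 2.0.1, cutadapt 2.10 and Trim Galore 0.6.4, and the build is GRCm38.p6. Whether counting used strand, how multi-mapping reads were handled and whether duplicates were removed are not given in the sources used here. All columns matched a sample title, and 0 were left unmapped.

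The 37 members are the chrM rows. Members, lists and tests were chosen with earlier results of these data known. Symbols are RefSeq's (GRCm38.p6, joined by span, at least 0.5 shared; all 37 matched), written with the prefix mt-. Each comparison was fitted on its own libraries over all genes with edgeR 4.0.16 in R 4.3.3 (TMM, filterByExpr with a minimum count of 10 and total of 15, robust quasi-likelihood F test), and an adjusted p under 0.05 was the threshold. Shares and ratios were compared by exact permutation. Levels (CPM) were scaled by TMM over all 8 libraries, and fold changes come from the fits. All mRNAs and rRNAs were to be named, with the tRNAs that passed or ranked among the 4 highest, and the 3 largest changes each way of the nuclear list; other genes were named after their values were seen. DESeq2 1.42.0, other scalings, no filter, all 8 libraries in 1 fit, the replicate block and each library left out were tried.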

Additional observations from a re-analysis of the deposited data

How the results depend on the processing

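The direction of every tested mRNA against Input held under each alternative run for it; counts of calls did not. With CaMKIIβ RIP, the 5 members past the threshold against Input became 0 to 10 with a RIP library left out. The share of all genes past it, 8.45% with all libraries, ran from 0% to 18.7% in the same fits. With IgG RIP the 20 became 19 to 21 with a RIP library left out, where 36.8% to 41.2% of all genes passed, against 38.7% with all libraries. They became 5 in 1 fit of all 8 libraries, which pools the spread of the CaMKIIβ RIP libraries, where 15.9% of all genes passed. Counts of calls are not given for fits with a single Input library. No member passed between the antibodies under any alternative run. The labels do not say that replicate numbers pair libraries. Between same-numbered libraries, the deviations of log2 CPM from each group's mean correlated by -0.0625 to 0.086. The replicate block gave 7 members lower and 0 higher against Input for CaMKIIβ RIP, where 19% of all genes passed in either direction. For IgG RIP it gave 20 lower, 0 of them rRNAs, and 1 higher, where 40% of all genes passed. Under that block, fold changes (log2) turned between the antibodies for mt-Cox3 (-0.10), mt-Nd5 (-0.59) and mt-Nd6 (-0.62), and against Input for mt-TrnS2 in CaMKIIβ RIP (-2.08) and IgG RIP (0.14). With library size alone, mt-Rnr1 in CaMKIIβ RIP against Input turned to -0.15. Without mt-Cox1 among the mRNAs, the log2 difference of the tRNA to mRNA ratio between CaMKIIβ RIP and Input turned to 0.0537.

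With a library left out, several differences between the antibodies changed sign (log2, CaMKIIβ RIP over IgG RIP). The shares and ratios ran from -0.55 to 0.71 for rRNAs, -0.84 to 0.18 for tRNAs, -1.73 to 1.06 for mt-Nd6 within mRNA, -0.13 to 0.80 for tRNA to mRNA, -0.46 to 0.99 for mt-Cox1 to the other mRNAs and -1.60 to 0.0436 for mRNAs other than mt-Cox1; the last 2 measures were added after the data were seen. Single genes ran from -0.19 to 1.36 for mt-Rnr2, -0.69 to 0.44 for mt-Cox3, -1.93 to 0.36 for mt-Nd3, -1.47 to 3.14 for mt-TrnS2, -1.30 to 0.69 for mt-Nd5, -1.41 to 1.29 for mt-Nd6 and -1.35 to 0.18 for mt-TrnP. Against Input, CaMKIIβ RIP ran from -0.46 to 0.68 for mt-Rnr1 and -1.71 to 2.94 for mt-TrnS2, and IgG RIP from -0.56 to 0.14 for mt-TrnS2. The causes were not tested. Few counts limit the precision for the tRNAs and for the mRNAs within the mirrored block.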
